A study of Homo sapiens with 6 samples.

Results

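The genes described here encode the proteins of the cytosolic ribosome. Members were the rows of the count table whose symbol was RPL or RPS followed by a protein number, or RPSA, RPLP0, RPLP1 or RPLP2, with the RPS6K kinases left out, and 86 of the 19845 gene symbols met that rule. They comprised 31 proteins of the small subunit, 46 of the large subunit and 9 paralogs, which are second gene copies such as RPL22L1 and RPS27L. RNA was sequenced from 6 cultures of Molm13, a human acute myeloid leukemia line with a rearranged MLL gene (MLL-r). All 6 expressed the Cas9 nuclease and had been transduced by lentivirus with the ipUSEPR vector. The paper names no selection step for the cultures used for RNA. In 3 cultures the vector carried a control guide (sgCtrl #1, #2 and #3) and in the other 3 a guide against COX4I1 (sgCOX4I1 #1, #2 and #3), a nuclear-encoded subunit of the mitochondrial respiratory Complex IV. Each library of a group carried a different guide, so the spread within a group holds differences between guides as well as between cultures, and nothing in the labels ties the sgCtrl guide of one number to the sgCOX4I1 guide of the same number. The cells were a transduced pool in each culture, and in such bulk RNA a smaller number of cells and less RNA per cell cannot be told apart.

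The cytosolic ribosome is built from the small subunit, which reads the mRNA, and the large subunit, which joins amino acids, and its proteins are needed in near equal numbers. Most of their mRNAs begin with a C followed by a run of pyrimidines, the 5′ terminal oligopyrimidine (TOP) tract, through which mTORC1 and LARP1 control their translation together. In leukemia cells the genes are among the most highly expressed of all, their transcription is raised by MYC, and inherited loss of 1 copy of several of them causes Diamond-Blackfan anemia.

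The TOP tract is the sequence that most of the family shares, and the starts of some members are shown for that reason. All the canonical members chosen begin with C and a run of pyrimidines. RPS28 and RPS29, also described library by library below, have annotated starts at A and T and are not shown. Each line gives 10 bases before and 20 bases from the RefSeq transcription start on GRCh38.p14, in the direction of transcription, and capitals mark the unbroken pyrimidines counted from the start itself. The first 3 are stalk proteins, and the next 3 are further members named below. RPS27 is the member that varied most between libraries, and RPL22 and RPL22L1 are a canonical gene and its paralog.

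RPLP0, chr12:120201092-120201121, minus strand: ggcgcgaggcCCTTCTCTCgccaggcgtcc

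RPLP1, chr15:69452808-69452837, plus strand: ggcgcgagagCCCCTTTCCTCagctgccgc

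RPLP2, chr11:809957-809986, plus strand: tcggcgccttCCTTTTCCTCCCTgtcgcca

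RPL41, chr12:56116623-56116652, plus strand: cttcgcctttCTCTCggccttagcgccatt

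RPL13A, chr19:49487598-49487627, plus strand: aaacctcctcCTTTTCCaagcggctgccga

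RPS6, chr9:19380217-19380246, minus strand: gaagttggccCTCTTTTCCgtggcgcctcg

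RPS27, chr1:153990752-153990781, plus strand: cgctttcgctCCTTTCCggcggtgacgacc

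RPL22, chr1:6199576-6199605, minus strand: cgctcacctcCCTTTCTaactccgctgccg

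RPL22L1, chr3:170870176-170870205, minus strand: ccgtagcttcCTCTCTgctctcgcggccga

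RPL7L1, chr6:42879606-42879635, plus strand: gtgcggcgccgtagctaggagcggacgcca

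RPS27L, chr15:63157458-63157487, minus strand: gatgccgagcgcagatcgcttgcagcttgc

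The starts of the last 2, both paralogs, have no pyrimidine at the first base, whereas RPL22L1 has a run of 6. Counting as a TOP start a first base C with at least 5 unbroken pyrimidines, 44 of the 69 members that had a RefSeq promoter held one (63.8%), against 672 of 14590 genes of the whole table (4.6%). Among the canonical members, meaning those that are not paralogs, it was 42 of 62 (67.7%), with runs of 5 to 19 pyrimidines over all members that held one, and among paralogs 2 of 7. Mitochondrial ribosomal proteins, which form the separate ribosome inside mitochondria and are the family closest in function, held one in 5 of 69 (7.2%). A start at a neighbouring base can change the answer, so these counts describe the annotated start and not the start used in these cells.

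The counts were those the authors deposited, whole numbers per gene with no normalization, and levels are given as CPM, counts relative to the TMM-normalized library size. Total counts were between 17241014 and 30861943 per library and TMM factors between 0.987 and 1.01. The targeted gene was checked first. COX4I1 was at 513, 502 and 463 CPM in the sgCtrl libraries, in the order #1, #2 and #3 kept from here on, against 132, 378 and 133 CPM in the sgCOX4I1 libraries, so the groups did not overlap but sgCOX4I1 #2 kept most of the transcript. Its log2 fold change was -1.21 with a standard error (SE) of 0.29, and without sgCOX4I1 #2 it was -1.89. The adjusted p over all libraries was 0.0512 in the quasi-likelihood test of edgeR, adjusted over 11861 genes by the Benjamini-Hochberg method, which is the test used throughout. COX4I1 protein, which the paper examined by Western blot with independent sgCOX4I1 sequences, cannot be read from these counts. The 7 markers of myeloid and MLL-r cells (CD33, FLT3, HOXA9, MEIS1, MPO, LYZ and SPI1) were all present, with summed levels from 2100 to 3033 CPM in sgCtrl and from 2790 to 3869 CPM in sgCOX4I1. They did not move together. MPO, a granule enzyme of myeloid cells, fell from 227 ± 8.28 to 109 ± 6.57 CPM (SD, n = 3, adjusted p = 1.595e-05 in edgeR's test), while LYZ, which makes up most of the sum, was at 1589.5 ± 479 and 2717 ± 600 CPM (adjusted p = 0.0534 in edgeR's test). None of 4 lymphoid or 4 epithelial and stromal markers passed 1 CPM, and the erythroid markers HBB and ALAS2 were at 0 in every library.

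Of the 86 members, 83 passed the filter on low counts. RPL10L and RPS4Y2 had no count in any library, which allows at most 3 counts, or 0.0959 to 0.174 CPM depending on the library, and RPL3L, the heart and skeletal muscle form of RPL3, had at most 2 counts and was not tested. The members together took 15.6%, 14.3% and 13.0% of the counts in sgCtrl #1, #2 and #3 and 15.6%, 13.7% and 13.0% in sgCOX4I1 #1, #2 and #3. The means were 14.3% ± 1.33 in sgCtrl and 14.1% ± 1.35 in sgCOX4I1 (SD, n = 3), and the difference of -0.169 percentage points was smaller than either SD. Counting error is small beside that spread, since the 95% Wilson interval in sgCtrl #1 ran from 15.58% to 15.62%, and it covers counting error only. The large-subunit genes took 9.73%, 8.92% and 8.21% in sgCtrl and 9.65%, 8.57% and 8.17% in sgCOX4I1, and the small-subunit genes 5.77%, 5.26% and 4.65% against 5.87%, 5.002% and 4.77%. In both subunits, therefore, the highest library of each group was #1 and the lowest #3, and the groups lay on top of each other.

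**Figure D1:**
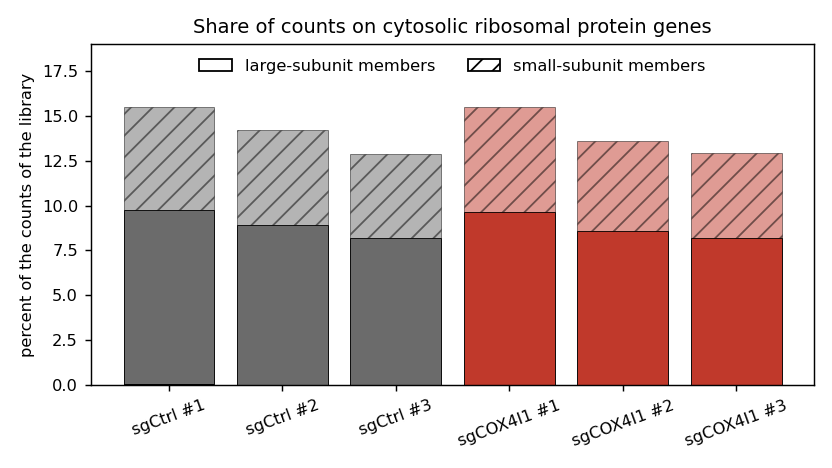
Percent of each library's counts on large-subunit (solid) and small-subunit (hatched) genes, with sgCtrl libraries in grey and sgCOX4I1 libraries in red. Library #1 is the highest and #3 the lowest in both groups, at 15.6% and 13.0% with the paralogs counted in, while the group means differ by 0.169 percentage points.

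Among single members, levels per coding length spread over more than 3 orders of magnitude in the table. Levels between genes are compared as CPM per kb of coding sequence, with the coding lengths of the GENCODE 44 canonical transcripts. The highest mean level in sgCtrl was 12199 CPM per kb for RPL41, whose protein is the smallest of the ribosome. RPL41 has only 75 coding nucleotides in a transcript of 676. It was at 915 CPM in sgCtrl, so its rank rests on the short coding length. Next came RPL13A with 10830, RPS18 with 8542, RPLP1 with 8328 and RPL12 with 6579 CPM per kb. At the other end stood RPL39L with 52.9, RPL36A with 49.3, RPL26 with 37.5, RPL17 with 14.8 and RPS10 with 6.69 CPM per kb. RPL39L is a paralog with its highest known expression in testis, but the other 4 are canonical ribosomal proteins.

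These 4 genes share a feature of the annotation. In GENCODE 44 on GRCh38, all of the coding bases of RPL17 also lie in RPL17-C18orf32, a same-strand read-through gene, as do 94.3% of those of RPL36A in RPL36A-HNRNPH2 and 92.1% of those of RPS10 in RPS10-NUDT3. For RPL26 the largest such gene is ENSG00000263809, and 71.0% of the coding bases of RPL26 are shared. In all, 7 of 77 canonical members shared over 10% of their coding bases with another gene on the same strand, and their levels lay between 6.69 and 1930 CPM per kb. The other 70 lay between 479 and 12199 CPM per kb with a median of 3500, and RPS26 was the lowest of them. RPS15A and RPL22 are also among the 7. For both and for RPL26 the overlapping genes have no row in the table, whereas the 3 read-through genes each have one, listed at 0 counts in every library. RPS10 itself had 55 to 125 counts per library, RPL17 141 to 254 and RPL36A 185 to 505. Counting programs such as HTSeq by default drop reads that fall on more than 1 gene, and whether that was done for these counts was not tested. The counts of the 7 are therefore uncertain as levels. Each of the 77 canonical members also has at least 1 annotated pseudogene named after it, 1588 in all, and how many reads were shared with these copies was not tested. RPL21, the member with the most of them (133), was at 2099 ± 299.7 CPM in sgCtrl (SD, n = 3), and RPS26, with 36, was at 165 ± 36.5 CPM, around a median of 1634 CPM over the canonical members tested.

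**Figure D2:**
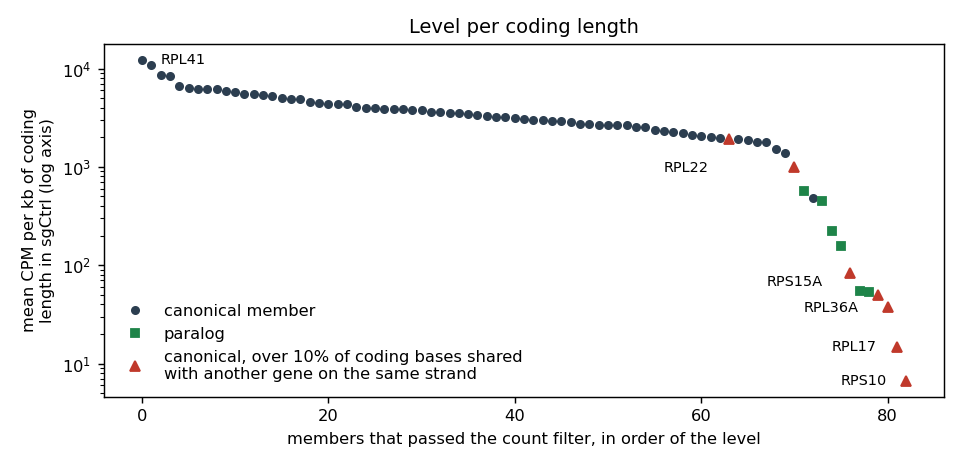
Mean level in sgCtrl, as CPM per kb of coding length on a log axis, of the 83 members that passed the filter, in order. Circles are canonical members, squares paralogs and triangles canonical members with over 10% of their coding bases shared with another gene on the same strand, and 5 of those 7 triangles lie among the 7 lowest points.

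The comparison of sgCOX4I1 with sgCtrl asks whether loss of a respiratory chain subunit was accompanied by a change in the mRNAs of the cytosolic ribosome. No member passed an adjusted p of 0.05, where 2.08% of the 11861 genes tested did (126 or 1.06% higher, 121 or 1.02% lower), and none changed 2-fold, where 0.202% of all genes did so with an adjusted p under 0.05. At an unadjusted p under 0.05 the test gave 1 member, RPL22L1 (1.2% of 83, higher), beside 17.3% of all genes (8.9% higher and 8.41% lower), and DESeq2 gave 2 members. The groups did not overlap for 2 of 83 members (2.41%), beside 21.6% of all genes (11.2% higher and 10.4% lower). The fold changes were also small. On the log2 scale they ran from -0.15 for RPL7 to 0.31 for RPL22L1, with 31 members above 0 and 52 below, and the median was -0.02 against -0.0023 over all genes tested. The median was -0.01 over the small subunit, -0.03 over the large subunit and 0.06 over the 6 paralogs tested.

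The size of change that these libraries leave room for follows from the errors. The SE was derived from edgeR's test, as the absolute log2 fold change divided by the square root of the F statistic. The 95% intervals used this SE and a t distribution with the total degrees of freedom of the test. The SE of the log2 fold change was between 0.07 and 0.23 for the members, with a median of 0.11. All 83 of the 95% intervals derived in this way lay within a 2-fold change in either direction, and 80 lay within 1.5-fold. The interval that reached highest ended at 0.69 on the log2 scale, for RPS27, and the one that reached lowest ended at -0.53, for RPL36A. A smaller common shift of the members was not detectable, and their median changed sign with the library left out. It was 0.06 without sgCtrl #1, with 67 members above 0, but -0.12 without sgCOX4I1 #1, with 6 above 0. Without sgCtrl #3 only 5 members were above 0, and without sgCOX4I1 #3 there were 64. Without sgCOX4I1 #2, the library in which COX4I1 RNA was least reduced, 46 were above 0 and the median was 0.0095. Without sgCtrl #2 the count was 34.

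**Figure D3:**
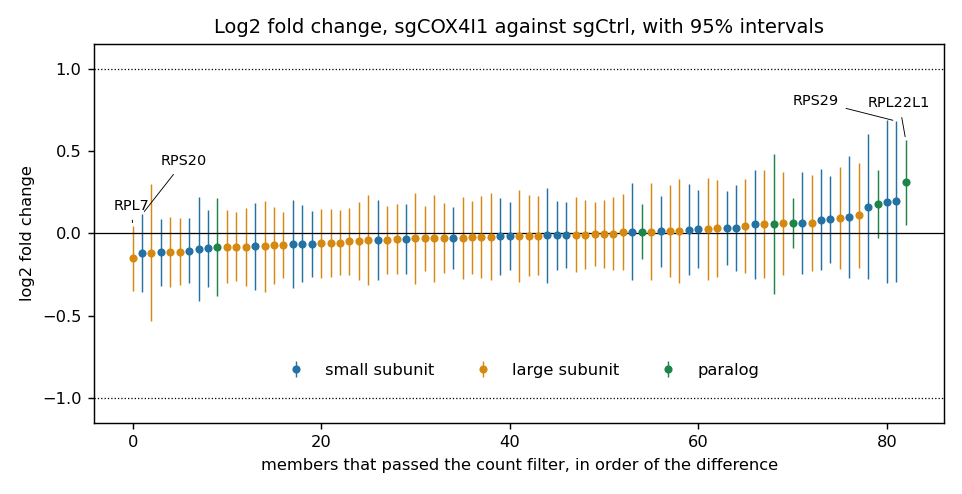
Log2 fold change of sgCOX4I1 against sgCtrl for the 83 members tested, in order, with bars for the 95% interval derived from the edgeR test and dotted lines at a 2-fold change. Every interval lies inside the dotted lines, and RPL22L1 has the 1 interval that does not reach 0.

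**Figure D4:**
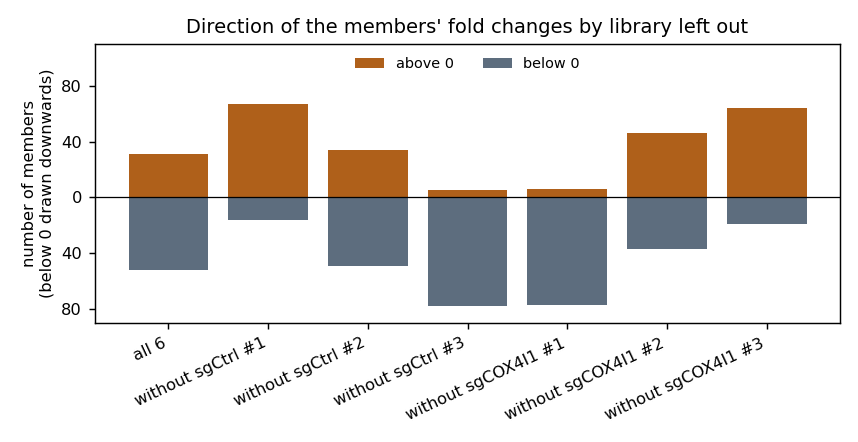
Number of the 83 members with a log2 fold change above 0 (drawn upwards) and below 0 (drawn downwards) with all 6 libraries and with each left out. The count above 0 moves from 31 to 67 without sgCtrl #1 and to 5 without sgCtrl #3.

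The most positive difference was that of RPL22L1, whose protein can take the place of RPL22 on the ribosome and whose gene lies at chr3:170864875-170870208 (minus strand) in GRCh38. Its level was 64.2, 57.9 and 48.5 CPM in sgCtrl, against 83.4, 66.3 and 61.7 CPM in sgCOX4I1. The groups overlapped, since sgCtrl #1 was above sgCOX4I1 #3. The log2 fold change was 0.31 (SE 0.12, 95% interval 0.05 to 0.57), with an adjusted p of 0.196 in edgeR's quasi-likelihood test. It stayed between 0.17 and 0.40 when each library was left out. RPL22, which binds RNA at the surface of the large subunit, was at 812, 730 and 682 CPM in sgCtrl, against 796, 660 and 648 CPM in sgCOX4I1. Its log2 fold change was -0.08 (SE 0.10, adjusted p = 0.726 in edgeR's test), and neither gene of the pair passed the threshold in this fit, which takes no account of the guide number.

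RPS27L and RPL7L1 were the next paralogs by p. RPL7L1, a paralog of RPL7 that acts in ribosome assembly, was at 356, 331 and 356 CPM in sgCtrl, against 369, 360 and 359 CPM in sgCOX4I1. Every sgCOX4I1 library was above every sgCtrl library, but the log2 fold change was only 0.06 (SE 0.07). RPS27L, a paralog of RPS27 known as a p53 target, was at 63.1, 56.1 and 51.2 CPM in sgCtrl, against 71.0, 63.5 and 58.3 CPM in sgCOX4I1. Its groups overlapped, and its log2 fold change was 0.18 (SE 0.10, adjusted p = 0.368 in edgeR's test). RPL26L1 had a log2 fold change of -0.08 around 24.0 ± 3.57 CPM in sgCtrl (SD, n = 3), RPL39L of 0.06 around 8.10 ± 2.46 CPM, and RPS4Y1, the Y-linked copy of RPS4X, of 0.0096. Among the canonical partners not yet named, RPL3 had a log2 fold change of -0.07, RPL10 of 0.11, RPL26 of -0.08, RPL39 of 0.03 and RPS4X of -0.03, none with an adjusted p under 0.05.

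RPL7, a large-subunit protein, was the member with the most negative difference. It was at 4267, 3962 and 4148 CPM in sgCtrl, against 3867, 3719 and 3551 CPM in sgCOX4I1. Every sgCOX4I1 library lay below every sgCtrl library, the only canonical member for which this was so. The log2 fold change was -0.15 (SE 0.09, 95% interval -0.35 to 0.04), with an adjusted p of 0.418 in edgeR's test. RPL7 and RPL7L1 thus were the 2 members whose groups did not overlap, in opposite directions, and neither passed the test.

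The remaining members with the smallest p were RPS6, RPS9, RPL5, RPL13A, RPS20 and RPS29, all with an adjusted p of 0.575 or more in edgeR's test. RPS6, the substrate of the S6 kinases, was at 4585, 4326 and 3957 CPM in sgCtrl, against 4103, 3897 and 3875 CPM in sgCOX4I1. The sgCOX4I1 values lay below those of sgCtrl #1 and #2, but sgCtrl #3 fell among them, and the log2 fold change was -0.12 (SE 0.09). RPS9, a small-subunit protein, had -0.11, RPL13A, known also for silencing inflammatory mRNAs outside the ribosome, had -0.11, and RPS20 had -0.12.

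Among members with special roles none passed the test. RPL5 and RPL11, which bind 5S RNA and, when free of the ribosome, hold back the p53 inhibitor MDM2, had log2 fold changes of -0.11 (SE 0.10) and -0.02 (SE 0.12). The stalk, to which elongation factors bind, is made of RPLP0, RPLP1 and RPLP2 with RPL12 at its base. RPLP0 was at 5253, 4854 and 4733 CPM in sgCtrl, against 5251, 4938 and 4610 CPM in sgCOX4I1, so the groups overlapped, and its log2 fold change was -0.0040 (SE 0.10). For RPLP1, RPLP2 and RPL12 it was -0.07, -0.03 and -0.05, and none passed the test. Of the 18 members mutated in Diamond-Blackfan anemia, 8 were above 0 and 10 below, their median log2 fold change was -0.0075, and 0 passed an adjusted p of 0.05. No member of that group had an unadjusted p under 0.05 in edgeR's test.

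The libraries of each group differed among themselves in a way that most members shared. Within a group, the SD of log2 CPM had a median of 0.17 over the members, against 0.13 over all genes tested. Between the highest and the lowest of the 6 libraries the level of a member differed 1.31-fold at the median, and from 1.11-fold to 2.34-fold over the 83. The order of the libraries was nearly the same for most members. Of the 77 canonical members, 73 had their highest sgCtrl level in #1 and 70 their lowest in #3, and in sgCOX4I1 it was 72 and 74. A member in the other order was rare, as 79 of the 83 tested were higher in #1 than in #3 in both groups. Over all 6 libraries, 39 canonical members were highest in sgCtrl #1 and 34 in sgCOX4I1 #1, where 18.2% and 17.4% of all genes tested were. The lowest library was sgCtrl #3 for 42 and sgCOX4I1 #3 for 30, beside 19.2% and 14.8% of all genes tested. Shares for similar families are given below with coding length.

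The member that varied most was RPS27, a small-subunit protein with a zinc finger, encoded at chr1:153990762-153992155 (plus strand). It was at 1007, 728 and 523 CPM in sgCtrl, against 1224, 720 and 635 CPM in sgCOX4I1, so that #1 stood far above #3 in each group. The group difference, a log2 fold change of 0.19 (SE 0.23), lay inside that spread. RPS29, another short zinc-finger protein of the small subunit, was at 346, 243 and 180 CPM in sgCtrl, against 416, 245 and 218 CPM in sgCOX4I1. The order of the libraries was that of RPS27, and its log2 fold change was 0.19 (SE 0.23). RPS28, which lies near the mRNA exit of the small subunit, was at 902, 771 and 559 CPM in sgCtrl, against 1024, 739 and 631 CPM in sgCOX4I1, again with #1 highest and #3 lowest. RPL36A and the paralog RPL39L, the other members with a large spread, did not keep that order. RPL36A was at 10.1, 20.2 and 16.8 CPM in sgCtrl against 13.1, 13.95 and 16.1 CPM in sgCOX4I1, where #1 was the lowest library of each group. RPL39L was at 9.05, 9.94 and 5.31 CPM in sgCtrl, against 8.73, 7.79 and 8.60 CPM in sgCOX4I1, with #2 highest in sgCtrl and lowest in sgCOX4I1. RPL36A is one of the 7 genes with shared coding bases.

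The spread went with coding length. The level in library #1 minus the mean of #2 and #3, on the log2 scale, had a median of 0.25 in sgCtrl and 0.26 in sgCOX4I1 over the 83 members. It was positive in both groups for 79 of them (95.2%), against 35.6% of all genes tested, 80.5% of the 77 mitochondrial ribosomal proteins tested and 57.1% of the other genes with a coding length up to 600 nucleotides. For the 9 canonical members with a coding length up to 300 nucleotides the medians were 0.44 and 0.55, and for the 22 over 600 nucleotides they were 0.16 and 0.17. Library #3 minus the others was negative in both groups for 75 members (90.4%), against 32.6% of all genes tested. It was so for 81.8% of the mitochondrial ribosomal proteins and 56.4% of the other genes with a coding length up to 600 nucleotides. Across the 77 canonical members the Spearman correlation of the #1 difference with coding length was -0.655 in sgCtrl and -0.684 in sgCOX4I1, and the differences of the 2 groups correlated with each other at 0.951. These are descriptions across genes of the same 6 libraries, and the genes share the depth and preparation of each library. The log2 fold change between groups correlated with coding length at -0.274.

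**Figure D5:**
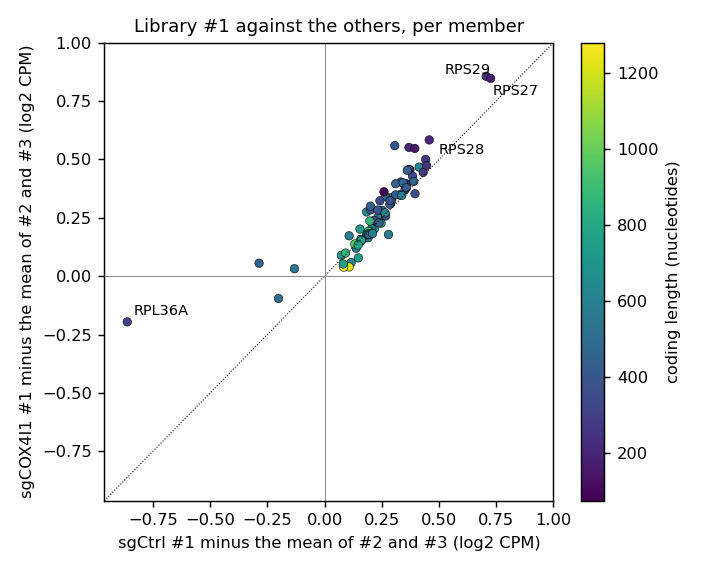
For each of the 77 canonical members, log2 CPM in library #1 minus the mean of #2 and #3, in sgCtrl (horizontal) and sgCOX4I1 (vertical), coloured by coding length, with a dotted line where both are equal. Most points lie above 0 on both axes and short genes such as RPS27, RPS29 and RPS28 lie farthest out, while RPL36A lies below 0 on both.

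The same difference was seen with and without a TOP start. It had medians of 0.24 in sgCtrl and 0.28 in sgCOX4I1 over the 42 canonical members with a TOP start and 0.26 and 0.23 over the 20 without one. Over the 28 members that carry a small nucleolar RNA gene inside them the medians were 0.24 and 0.24, and over the 49 that carry none 0.25 and 0.28. In the list of 18 other mRNAs known for a TOP tract that passed the filter, such as those of elongation factors, the medians were 0.04 and 0.04. Mitochondrially encoded transcripts ran the other way across the libraries. Their share of the counts was 2.93%, 3.97% and 4.84% in sgCtrl #1, #2 and #3 and 3.26%, 3.65% and 4.99% in sgCOX4I1 #1, #2 and #3. The part of RNA quality, library preparation or guide in these orders was not tested.

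Further ribosomal components fall outside the symbol rule, among them FAU, which is made as a fusion to a ubiquitin-like sequence, RACK1, a scaffold on the small subunit, and RPL36AL, a copy of RPL36A. Their log2 fold changes were -0.01, 0.0094 and -0.05, and none had an unadjusted p under 0.05. FAU was at 197, 177 and 160 CPM in sgCtrl, against 203, 171 and 154 CPM in sgCOX4I1, with the libraries in the same order as the members. RPL36AL, at 138, 120 and 96.6 CPM against 137, 109 and 97.3 CPM, was in that order too, unlike RPL36A.

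Genes that act with the ribosome did not pass the test either. Over the lists of other TOP mRNAs, ribosomal components outside the rule, initiation, elongation and termination, ribosome biogenesis, and regulators of TOP mRNAs, 0 of 162 genes tested had an adjusted p under 0.05 in edgeR's test, against 2.08% of all genes. DESeq2 called 2 genes of these lists, beside 3.93% of all genes. At an unadjusted p under 0.05 there were 22 (20 higher and 2 lower), or 13.6%, beside 17.3% of all genes. Ribosome biogenesis, the list of factors that process rRNA and assemble subunits, had 68 of 89 genes above 0, where 49.4% of all genes were, and a median log2 fold change of 0.06. In that list 12 genes (13.5%) had an unadjusted p under 0.05 in edgeR's test, all of them higher in sgCOX4I1. Of all genes 17.3% did so in either direction, and 8.9% were higher. In the same list 19 (21.3%) had every sgCOX4I1 library above every sgCtrl library, beside 11.2% of all genes. The smallest adjusted p of the list was that of UTP20, a factor of small-subunit assembly, which was at 59.4, 51.4 and 50.7 CPM in sgCtrl, against 67.5, 70.0 and 63.1 CPM in sgCOX4I1. The groups of UTP20 did not overlap, and its log2 fold change was 0.31 (SE 0.08, adjusted p = 0.0756 in edgeR's test). The #1 difference was positive in both groups for 52.8% of the 89 genes, against 95.2% of the members.

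MYC, which drives transcription of ribosomal protein and ribosome biogenesis genes, was at 539, 488 and 425 CPM in sgCtrl, against 606, 581 and 565 CPM in sgCOX4I1. The groups of MYC did not overlap, with a log2 fold change of 0.27 (SE 0.09, adjusted p = 0.139 in edgeR's test). HNRNPA1, an RNA-binding protein with a TOP mRNA, was at 4097, 3857 and 4073 CPM in sgCtrl, against 3503, 3446 and 3290 CPM in sgCOX4I1. All sgCOX4I1 values of HNRNPA1 lay below all sgCtrl values, with a log2 fold change of -0.23 (SE 0.09, adjusted p = 0.195 in edgeR's test). UTP20, MYC and HNRNPA1 were chosen after their values were seen, as the genes with the smallest adjusted p of their lists. The mitochondrial ribosomal proteins had 44 of 77 genes above 0, a median log2 fold change of 0.03, and 0 with an adjusted p under 0.05 in edgeR's test, with 2 at an unadjusted p under 0.05 (2.6%, beside 17.3% of all genes).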

How the data were processed

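RNA-seq counts of 3 sgCtrl and 3 sgCOX4I1 Molm13-Cas9 libraries, each with its own guide, were analysed. The authors deposited whole-number counts for 19845 gene symbols, with no normalization. The methods name Trimmomatic, Bowtie2, GRCh38.p14 and RSEM, while the submitters' processing notes name STAR 2.6.0a and the column names point to marked duplicates and HTSeq. The letter and guide number in its name gave each column its sample. edgeR 4.0.16 (R 4.3.3) was run on all 6 libraries with TMM, filterByExpr and the quasi-likelihood test, adjusted over 11861 genes, with DESeq2 1.42.0 and limma 3.58.1 as alternatives. Totals were 17241014 to 30861943 counts. Libraries of a group differed by more than sampling noise (chi-square per degree of freedom 11.0 to 27.5), so none was a copy. Log2 values per library used a prior count of 2. P-values set the group difference against the spread between these cultures, which holds differences between guides too. An exact permutation test of 3 against 3 cannot go below 0.1. Lengths and overlaps came from GENCODE 44, starts from RefSeq. The members, lists and alternatives were chosen with earlier results of these data known. Named genes were COX4I1, the 10 members with the smallest p, the 5 highest and 5 lowest per kb, the 5 with the largest within-group SD, stalk and 5S proteins, paralogs with their partners, and 3 components outside the rule. Some items of these lists are not reported here. Scripts were tested on simulated data. Corrections for the trend on coding length were added after the data had been seen.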

Additional observations from a re-analysis of the deposited data

How the results depend on the processing

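No member was called under DESeq2, limma-voom, other scalings, other filters or the length corrections alone, nor with any 1 library left out, and none reached 2-fold with an adjusted p under 0.05 in any fit. Of the translation lists, 2 genes were called with DESeq2 and 1 with no filter, where 3.93% and 3.54% of all genes were. With 1 library left out 0 to 5 were called, beside 0.2% to 4.66% of all genes. The 5 were called without sgCtrl #1, where the share of all genes was 4.66%. The guide number as a replicate block called 1 member (RPL22L1, log2 fold change 0.31, adjusted p = 0.00488 in edgeR's test), 21 list genes and 11.9% of all genes. The block with the transcript-length trend removed called 1 member and 20 list genes, beside 11.6% of all genes. With the coding-length trend removed the block called 2 members (RPL22L1 and RPL7, -0.16) and 22 list genes, beside 12.6% of all genes. Deviations of same-numbered samples correlated at 0.382, -0.0244 and 0.294 for #1, #2 and #3 (#2 of sgCOX4I1 correlated best with #3 of sgCtrl, at 0.13). Crossed samples correlated at -0.324 for sgCtrl #1 with sgCOX4I1 #3 and at -0.384 for sgCtrl #3 with sgCOX4I1 #1. In the members' share of counts #2 lay between #1 and #3 in both groups. A value near 0 for #2 therefore cannot decide whether the numbers pair the samples. The fit without the block was kept because the labels tie no numbers across the groups, and what #1 and #3 share was not tested. Over the other settings the members' median log2 fold change was within -0.023 and -0.0038, with 39 members above 0 for library sizes without TMM and 29 for the block with the coding-length trend removed.

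Of 35 named genes, 13 kept their direction under every alternative. FAU turned to 1.5e-06 and RPLP0 to 0.0089 without TMM, and RPLP0 to 0.00032 with no filter. With the transcript-length trend removed RPLP0 was 0.0065 and RPL39 -0.0069, and with the block added 0.0070 and -0.011. With the coding-length trend removed RACK1 was -0.0029, and with the block added RACK1 was -0.0024 and RPL39 -0.0031. With each library left out, log2 fold changes ran from -0.12 to 0.076 for FAU, -0.037 to 0.0597 for RACK1, -0.061 to 0.26 for RPL10, -0.14 to 0.079 for RPL11, -0.097 to 0.0073 for RPL12, -0.033 to 0.051 for RPL17, -0.17 to 0.061 for RPL26, -0.19 to 0.052 for RPL26L1, -0.35 to 0.10 for RPL36A, -0.20 to 0.079 for RPL36AL, -0.18 to 0.17 for RPL39, -0.17 to 0.23 for RPL39L, -0.14 to 0.076 for RPL41, -0.049 to 0.043 for RPLP0, -0.15 to 0.0067 for RPLP1, -0.15 to 0.065 for RPLP2, -0.10 to 0.19 for RPS18, -0.15 to 0.46 for RPS27, -0.12 to 0.26 for RPS28, -0.14 to 0.47 for RPS29, -0.071 to 0.022 for RPS4X and -0.036 to 0.043 for RPS4Y1. The members' share differed by -0.925 to 0.493 percentage points. The cause of these changes was not tested.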
